A study of Mus musculus with 9 samples.

Results

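Transcripts of 8 secreted factors that act on blood cell precursors or as growth and survival factors were followed in group 2 innate lymphoid cells (ILC2s) of the mouse pancreas: Csf2, Il3, Csf1, Il6, Lif, Osm, Il2 and Il9. They were picked by gene symbol from a count table of 20732 genes. All 8 were in it, and all 8 passed the filter on low counts that kept 14405 genes for testing. ILC2s are lymphocytes of tissues that carry no antigen receptor and answer to signals such as IL-33 with cytokine secretion. The cells came from C57BL6/J mice given either PBS (4 libraries, titled naïve in the labels) or 200 ng of IL-33 on days 0 and 1, with harvest on day 5, and were taken by flow sorting from live CD45+ cells as the fraction that was KLRG1+ but CD3-, B220- and Lineage-. The labels name no further allele and no age. Cells of either group came through the same gate on KLRG1, so cells without this receptor were not sampled.

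These factors fall into families by the receptor chain that carries their signal. GM-CSF (Csf2) and IL-3 share the beta common chain and drive the growth of granulocytes, macrophages, mast cells and basophils, and M-CSF (Csf1) keeps macrophages alive through a receptor kinase of its own. IL-6, LIF and oncostatin M (Osm) all need the chain gp130, while IL-2 and IL-9, growth factors of lymphocytes and mast cells, need the common gamma chain. Their messages are known for short lifetimes, set in part by AU-rich stretches in the 3' untranslated region (UTR), and their promoters answer to factors of the AP-1, NFAT and NF-kB families.

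The AU-rich stretches are shown here for the 3 cytokines that rose with IL-33 (Csf2, Il3 and Il6) and the 3 that fell (Lif, Il2 and Csf1), because the direction did not separate them. Each line is 30 bases of the annotated 3' UTR with the most copies of the pentamer ATTTA, 5' to 3' on the gene's strand and written as DNA, with every copy of the pentamer in capitals. On GRCm38 the stretches lie at chr11:54247325-54247354 (minus strand), chr11:54265303-54265332 (minus), chr5:30019684-30019713 (plus), chr11:4272414-4272443 (plus), chr3:37121040-37121069 (minus) and chr3:107741103-107741132 (minus).
Csf2: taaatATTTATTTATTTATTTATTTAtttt
Il3: atgccatcaaatgtcttatcaATTTAtcta
Il6: atttttaATTTAttgataATTTAaataagt
Lif: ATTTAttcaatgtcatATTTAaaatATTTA
Il2: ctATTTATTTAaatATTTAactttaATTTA
Csf1: taaggtcATTTAaatatctATTTAaaaaat
Csf2 carried 5 overlapping copies in 1 run and Il2 carried 4 in its 30 bases, although the first rose and the second fell. All 8 cytokines held the pentamer somewhere in the 3' UTR, as did 66.8% of the 11087 tested genes with an annotated 3' UTR. Counted per kb of 3' UTR, Il9 had 34.9 copies, Csf2 28.4, Il6 14.1, Il2 12.0, Il3 9.90 and Osm 5.90. These values were above those of at least 95.3% of the tested genes, whose median was 1.25. The 3' UTRs of Lif and Csf1 are longer, with 3180 and 2111 bases, and held 2.20 and 1.89 copies per kb. The longer motif TTATTTATT, which contains the pentamer, occurred 4 times in Csf2, 2 times in Lif and 1 time in Il2, and in none of the other 5. It occurred in 7.23% of the tested genes.

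**Figure D1:**
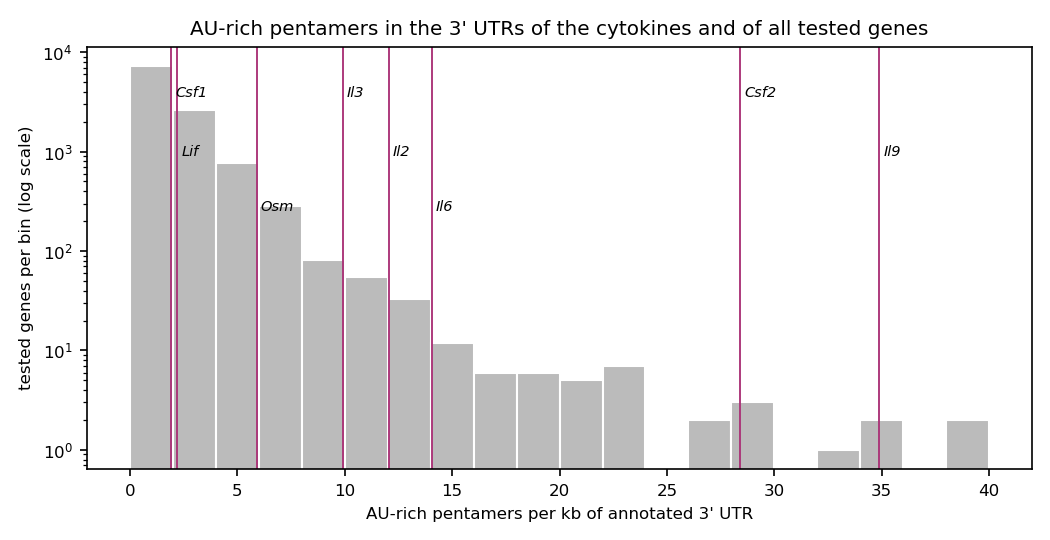
Number of tested genes (vertical axis, log scale) by copies of the AU-rich pentamer per kb of annotated 3' UTR (horizontal axis, bins of 2 per kb, values above 40 placed in the last bin). Lines mark the 8 cytokines: Csf1 and Lif sit close to the bulk of genes at 1.89 and 2.20, and Csf2 and Il9 far to the right at 28.4 and 34.9.

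Promoters are shown for Csf2, Il3 and Il6, which rose, and for Lif and Il2, which fell. The sequences are RefSeq's (GRCm38.p6), from 250 bases before to 50 bases after the annotated start. Of the 8 genes, 7 matched a promoter entry. Capitals mark matches on either strand. The motifs were TGANTCA for AP-1, AGATAA for GATA factors, TATAAA for the TATA box and, for NF-kB, 3 times G followed by any 5 bases and 2 times C. A second match of the NF-kB motif that overlaps the first is run together with it. The windows lie at chr11:54249850-54250149 (minus strand), chr11:54267230-54267529 (minus), chr5:30012864-30013163 (plus), chr11:4257318-4257617 (plus) and chr3:37125905-37126204 (minus). The RefSeq start of Csf2 lies 232 bases upstream of the start in the GENCODE annotation used for the counts, so its window ends before the latter.
Csf2: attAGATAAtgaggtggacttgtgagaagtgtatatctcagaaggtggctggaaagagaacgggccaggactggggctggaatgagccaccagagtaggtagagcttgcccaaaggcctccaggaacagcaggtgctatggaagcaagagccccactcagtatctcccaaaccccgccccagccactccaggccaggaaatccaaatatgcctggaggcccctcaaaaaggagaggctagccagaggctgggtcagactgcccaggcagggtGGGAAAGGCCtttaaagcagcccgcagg
Il3: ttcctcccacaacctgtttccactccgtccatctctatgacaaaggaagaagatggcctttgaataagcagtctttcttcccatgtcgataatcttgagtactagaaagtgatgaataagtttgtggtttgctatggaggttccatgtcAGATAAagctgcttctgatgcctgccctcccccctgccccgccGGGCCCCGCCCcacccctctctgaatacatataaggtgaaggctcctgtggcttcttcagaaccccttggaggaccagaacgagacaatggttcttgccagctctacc
Il6: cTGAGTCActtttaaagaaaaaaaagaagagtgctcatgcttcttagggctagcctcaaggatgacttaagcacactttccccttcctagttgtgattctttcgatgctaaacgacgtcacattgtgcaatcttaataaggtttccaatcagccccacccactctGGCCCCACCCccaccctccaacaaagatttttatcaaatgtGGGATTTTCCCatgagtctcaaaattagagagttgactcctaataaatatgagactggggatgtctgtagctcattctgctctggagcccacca
Lif: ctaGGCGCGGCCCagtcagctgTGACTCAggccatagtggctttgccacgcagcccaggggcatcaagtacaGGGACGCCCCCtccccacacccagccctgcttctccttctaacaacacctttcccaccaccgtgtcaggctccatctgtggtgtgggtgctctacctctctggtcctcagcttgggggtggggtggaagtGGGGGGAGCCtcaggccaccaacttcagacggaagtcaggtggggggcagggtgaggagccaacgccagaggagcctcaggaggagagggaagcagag
Il2: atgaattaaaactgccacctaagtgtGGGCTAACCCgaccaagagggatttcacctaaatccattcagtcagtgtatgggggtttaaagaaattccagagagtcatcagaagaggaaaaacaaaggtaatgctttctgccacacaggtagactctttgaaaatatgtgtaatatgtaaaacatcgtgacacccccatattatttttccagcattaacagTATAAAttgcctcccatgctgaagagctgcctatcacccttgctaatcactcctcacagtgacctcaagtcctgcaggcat
The AP-1 motif occurred in the windows of Il6, Lif and Il9, 3 of 7, against 7.81% of 32851 promoter windows. In Il6 it spans bases -249 to -243 and in Lif -228 to -222 from the start, so a riser and a faller both held it. The GATA motif occurred in Csf2 and Il3, which lie side by side on chromosome 11, and in 11.2% of all windows. Il2 alone of the 7 held TATAAA, at -31 to -26, against 13.6% of all windows. All 7 windows held the NF-kB motif and the NFAT core GGAAA, but 50.8% and 61.3% of all windows did too. Copies of GGAAA are capitalised only where they lie inside the NF-kB motif, as at -39 to -35 of Il6 on the opposite strand. The CRE motif TGACGTCA and the STAT motif TTCNNNGAA matched none of the 7, and 1.79% and 8.30% of all windows. A match of letters is a description and not a binding site.

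The libraries held 14216976 to 21020023 counts each. All 12 ILC2 markers on a fixed list were detected, with a summed level of 9720 to 12400 CPM (counts scaled to a common library size after TMM correction for the make-up of a library) in PBS and 10724 to 15457 with IL-33. RNA of acinar cells, which make the digestive enzymes of the pancreas, was present throughout and highest in PBS 4, where 18 acinar genes summed to 707925 CPM. The other libraries had 992 to 109279 CPM, and the scaling factor of PBS 4 was 0.532 against 0.990 to 1.17 elsewhere. Erythroid genes, led by Hba-a1 and Hba-a2, summed to 168 to 323 CPM in PBS, 369 and 540 in IL-33 5 and 4, and 1293 to 3568 in IL-33 1, 2 and 3. Markers of T cells (225 to 306 CPM in PBS, 244 to 348 with IL-33, nearly all Cd3g), B cells (9.73 to 26.4 and 57.9 to 102, mostly Cd79b) and NK cells (0 to 4.88 and 0.0887 to 1.02) were low beside the ILC2 markers. The B cell sum was higher in every IL-33 library than in any PBS library, and 1 of 2 tested B cell markers was called higher. Results are therefore given with and without PBS 4 and IL-33 1 to 3 where a call or a value moved.

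With IL-33, 3 of the 8 cytokine transcripts rose (Csf2, Il3 and Il6), 3 fell (Lif, Il2 and Csf1), and Osm and Il9 did not pass the test. That is 6 of 8 called at an adjusted p below 0.05 (edgeR's quasi-likelihood test, Benjamini-Hochberg over all 14405 genes). Of all tested genes 25.2% were called, 13.7% higher and 11.6% lower. The libraries of the groups did not overlap for the same 6 transcripts, against 26.1% of all tested genes. All 6 calls held without PBS 4. Without IL-33 1 to 3, with only IL-33 4 and 5 left, Il3 was no longer called (adjusted p = 0.102), and the other 5 were. The log2 change of Il3 was 2.89 there, against 2.66 with all libraries. It was 1.72 for Csf2, 2.75 for Il6, -2.98 for Csf1, -2.01 for Lif and -1.87 for Il2. Over all genes, 732 were called higher and 664 lower in that setting, against 1967 and 1666 with all libraries.

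**Figure D2:**
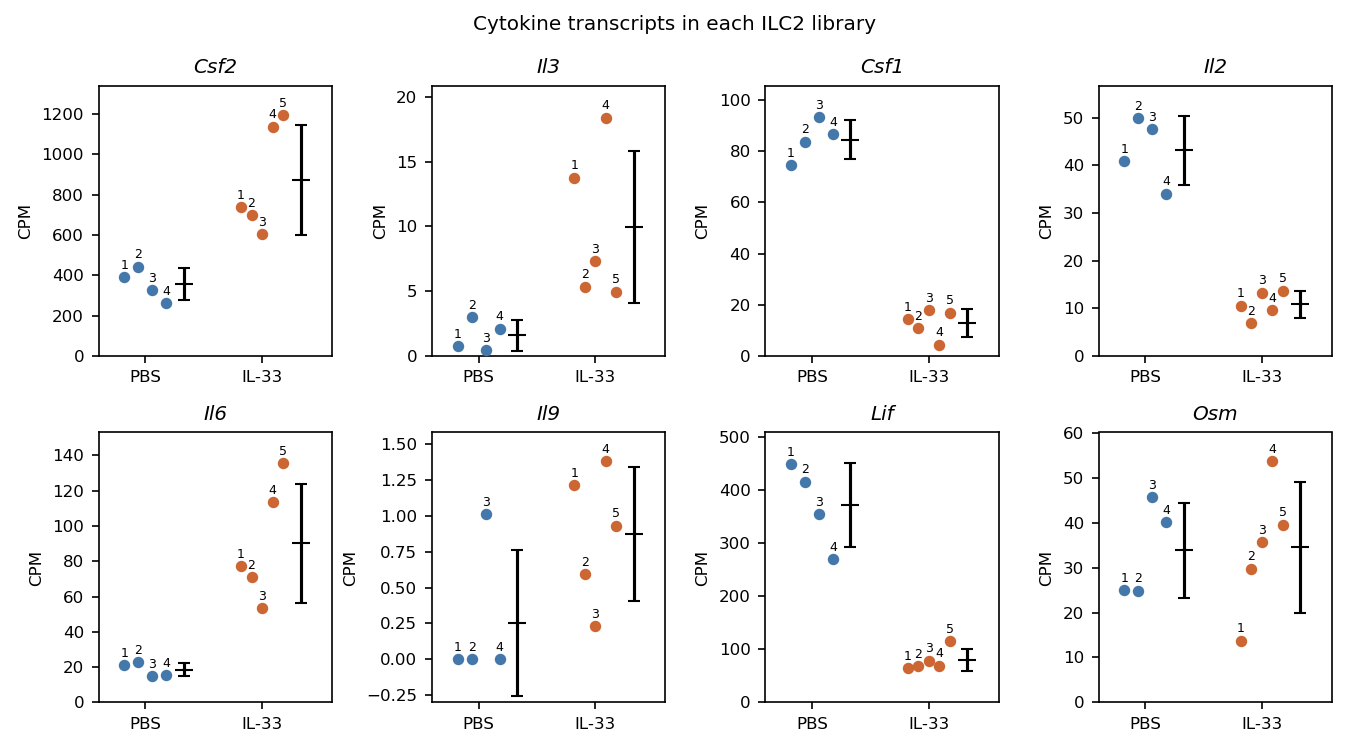
Level of each cytokine transcript in CPM (vertical axes, own scale in each panel) in the PBS and IL-33 libraries. Points are libraries, numbered by replicate, and bars give the mean ± SD over 4 or 5 libraries. In the panels of Csf2, Il3 and Il6 every IL-33 point lies above every PBS point, in those of Csf1, Il2 and Lif every IL-33 point lies below, and in those of Il9 and Osm the groups overlap.

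Among the myeloid growth factors, Csf2 had the highest level of the 8 transcripts per kb of exon in either group. It encodes GM-CSF and lies at chr11:54247271-54249667 on the minus strand (GRCm38). It stood at 391, 443, 325 and 261 CPM in PBS 1 to 4 and at 736, 697, 603, 1137 and 1193 CPM in IL-33 1 to 5. The lowest IL-33 library lay above the highest PBS library, and IL-33 4 and 5 stood well above the other 3. The rise was 2.46-fold, a log2 change of 1.30 ± 0.25 (SE, 95% interval 0.75 to 1.85, adjusted p = 0.0046). Without PBS 4, the PBS library with the lowest Csf2, the log2 change was 1.16 (adjusted p = 0.013). In bulk libraries such as these, more cells with a transcript and more of it per cell cannot be told apart. Exons of Csf2 share 96 bases with Gm12223 on the opposite strand, which had 0.497 to 2.10 CPM. Strand is not stated to be kept, so reads in those 96 bases could come from either gene.

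Per kb of exon, Csf2 had 444 ± 98.9 CPM in PBS (SD, n = 4), which ranked 144 of 14405 tested genes, and 1091 ± 340 with IL-33 (n = 5), which ranked 56. This puts it beside the type 2 cytokines for which ILC2s are best known. Per kb, Il5, the eosinophil growth factor, went from 232 ± 15.5 to 1090 ± 279 CPM, and Il13, which drives mucus and fibrosis, from 81.4 ± 29.3 to 1438 ± 464. With PBS, Csf2 was thus above both, and with IL-33 the 3 levels lay within their spread. No test was made between genes.

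Il3 encodes IL-3, a growth factor of mast cells and basophils, and its gene ends 15635 bases from Csf2, at chr11:54265303-54267277 on the same strand. It was near the limit of detection in PBS, with 0.76, 3.01, 0.46 and 2.10 CPM in PBS 1 to 4. IL-33 1 to 5 had 13.8, 5.34, 7.30, 18.4 and 4.97 CPM. The groups did not overlap, but the lowest IL-33 library and the highest PBS library were less than a factor of 2 apart. The log2 change was 2.66 ± 0.68 (95% interval 1.14 to 4.17, adjusted p = 0.018). It was no longer called without PBS 1 (log2 2.42, adjusted p = 0.0504). The order of the IL-33 libraries differed from that of Csf2: IL-33 5 had the most Csf2 and the least Il3. On a log2 scale the ratio of Csf2 to Il3 counts was 8.12 ± 1.24 in PBS and 6.59 ± 0.88 with IL-33, and this difference of -1.52 did not pass an exact permutation test (two-sided p = 0.0952, adjusted over 5 ratios 0.0952). The smallest p that 4 against 5 libraries allow is 0.0159.

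Markers of mast cells and basophils were higher as a sum in every IL-33 library. Of 10 such genes 3 had a row in the table, and they summed to 36.3 to 89.8 CPM in PBS and 138 to 415 with IL-33, led by Cpa3, a mast cell protease, and Hdc, which makes histamine. Cpa3 was called higher (log2 2.44, adjusted p = 0.010). The sum was highest in IL-33 3, at 415 CPM, where Il3 (7.30 CPM) was in the middle of its group and Csf2 (603 CPM) was the lowest of it. What part these cells had in the Il3 and Csf2 values was not tested.

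Csf1 moved the other way and had the largest fall of the 8. It encodes M-CSF, the survival factor of macrophages, at chr3:107741048-107760469 on the minus strand. PBS 1 to 4 had 74.5, 83.7, 93.2 and 86.7 CPM, and IL-33 1 to 5 had 14.3, 10.9, 17.996, 4.34 and 16.9. All 5 IL-33 libraries were far below the lowest PBS library, and IL-33 4 was the lowest of all. The fall was 6.56-fold (log2 change -2.71 ± 0.35, 95% interval -3.50 to -1.93, adjusted p = 6.9e-04). PBS libraries were close together (coefficient of variation 9.18%), those with IL-33 less so (42.7%). On a log2 scale the ratio of Csf2 to Csf1 went from 2.05 ± 0.41 (SD, 1.59 to 2.40) in PBS to 6.18 ± 1.11 (5.06 to 8.03) with IL-33. That difference of 4.13 passed the exact permutation test over libraries (p = 0.0159, adjusted 0.0265). Csf2 and Csf1 were each apart between the groups, in opposite directions. Their ratio therefore had to separate the groups, and the test adds nothing to the calls of the single genes.

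Stromal cells also make Csf1, and their markers, though low, were in part lower with IL-33. The 7 endothelial markers summed to 47.9 to 202 CPM in PBS and 29.8 to 63.5 with IL-33, led by Pecam1 and Kdr, and 2 of them were called lower (Kdr and Tie1). The fibroblast markers, 7 of 8 with a row and led by Col1a2 and Col3a1, summed to 4.10 to 29.0 and 0.939 to 10.1, and Col1a2 was called lower. The part of RNA from these cells in the Csf1 level was not tested.

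Of the gp130 cytokines, Il6 rose, Lif fell and Osm did not pass the test. Il6, which drives acute-phase responses and the growth of B cells and T helper cells, lies at chr5:30013114-30019981 on the plus strand. Its transcript stood at 21.3, 22.7, 15.0 and 15.6 CPM in PBS 1 to 4 and at 77.1, 71.1, 53.2, 113 and 136 in IL-33 1 to 5. The lowest IL-33 library had more than 2 times the level of the highest PBS library. The rise was 4.83-fold (log2 change 2.27 ± 0.30, 95% interval 1.61 to 2.93, adjusted p = 7.2e-04). The IL-33 libraries had the same order as for Csf2, with IL-33 5 and 4 at the top and IL-33 3 at the bottom. The ratio of Csf2 to Il6 counts was accordingly even within a group, 16.8 to 21.7 in PBS and 8.80 to 11.3 with IL-33. This ratio was picked after its values were seen and is given without a test.

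Lif, a factor that holds stem cells undifferentiated and acts on many tissues, lies at chr11:4257557-4272514 on the plus strand. With Csf2 it made up most of the cytokine counts in PBS. It stood at 449, 417, 356 and 270 CPM in PBS 1 to 4 and at 64.3, 68.5, 79.1, 69.6 and 115 CPM in IL-33 1 to 5. PBS 4 was the lowest of its group, yet more than 2 times the highest IL-33 library. The fall was 4.70-fold (log2 change -2.23 ± 0.21, 95% interval -2.70 to -1.77, adjusted p = 1.4e-04), the smallest adjusted p among the 8 transcripts. Without PBS 4 the log2 change was -2.37 (adjusted p = 2.3e-04). The count ratio of Lif to Csf2, also picked after its values were seen, was 0.940 to 1.15 in PBS and 0.0612 to 0.131 with IL-33.

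Osm encodes oncostatin M, a product of activated macrophages and T cells that acts on stroma. It lies 16530 bases from Lif on the same strand, at chr11:4236420-4241026. PBS 1 to 4 had 24.9, 24.9, 45.7 and 40.1 CPM, and IL-33 1 to 5 had 13.8, 29.8, 35.7, 53.6 and 39.6. The groups overlapped over nearly their whole range, and the lowest and the highest library of all were both IL-33 libraries. The log2 change was 0.03 ± 0.36 (adjusted p = 0.965), and its 95% interval of -0.78 to 0.83 leaves room for changes of that size in either direction. Its sign turned with the tool and the library left out, from -0.21 without IL-33 4 to 0.23 without IL-33 1, and from 0.03 with TMM to -0.02 with RLE scaling. Without IL-33 1 to 3 together the log2 change of Osm was 0.47 and was not called (adjusted p = 0.417). IL-33 4, the highest for Osm, also had the highest sum of 10 macrophage markers, 71.6 CPM with Lyz2 and C1qb as the most abundant, against 8.67 to 20.3 in the other IL-33 libraries and 8.21 to 29.1 in PBS. PBS 3, the next highest for Osm, had the lowest macrophage sum of all libraries, at 8.21 CPM. The part of macrophage RNA in the Osm level was not tested.

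Within each library Lif was set against its neighbour Osm and against Il6, since a ratio of counts does not depend on the scaling of libraries. On a log2 scale Lif to Osm went from 3.49 ± 0.73 in PBS to 1.30 ± 0.67 with IL-33, a difference of -2.19. Lif to Il6 went from 4.32 ± 0.20 to -0.14 ± 0.46, a difference of -4.46, so that Lif passed from far above Il6 to about the same number of counts. Both differences had p = 0.0159 in the exact permutation test (adjusted 0.0265), the smallest p the design allows. In either ratio every PBS library lay above every IL-33 library. For Lif to Il6 this had to be so, since each gene was apart between the groups, in opposite directions. The test of that ratio adds nothing to the calls of the single genes.

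Of the gamma chain growth factors, Il2 fell and Il9 was hardly measurable. Il2, the growth factor that T cells make for themselves and for regulatory T cells, lies at chr3:37120523-37125959 on the minus strand. It stood at 40.9, 49.97, 47.6 and 34.1 CPM in PBS 1 to 4 and at 10.6, 6.83, 13.3, 9.67 and 13.7 CPM in IL-33 1 to 5. The lowest PBS library had more than 2 times the level of the highest IL-33 library. The fall was 3.99-fold (log2 change -1.996 ± 0.23, 95% interval -2.52 to -1.47, adjusted p = 4.1e-04). Of 8 T cell markers 3 were tested, and 0 were called by edgeR in either direction (0 also at an unadjusted p below 0.05). The sum of the list, nearly all Cd3g, lay between 225 and 306 CPM in PBS and between 244 and 348 with IL-33. The part of T cell RNA in the Il2 level was not tested.

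Il9, a growth factor of mast cells that ILC2s of the lung are known to make, lies at chr13:56479277-56482246 on the minus strand. It had 0 counts in PBS 1, 2 and 4 and 20 counts (1.013 CPM) in PBS 3. IL-33 1 to 5 had 1.22, 0.59, 0.23, 1.38 and 0.93 CPM, 87 counts in all. All 5 IL-33 libraries had counts, and PBS 3 lay among them, so the groups overlapped. The log2 change of 1.71 ± 1.37 (95% interval -1.35 to 4.76) did not pass the test (adjusted p = 0.397), and at this depth a change could not be shown. Without PBS 3 Il9 was called (adjusted p = 0.015), with all remaining PBS libraries at 0. IL-33 3, which had the highest sum of mast cell and basophil markers, had the least Il9 of its group. The log2 ratio of Il2 to Il9, computed with 0.5 added to each count, went from 9.09 ± 2.45 to 3.78 ± 1.15, a difference of -5.31 (exact permutation p = 0.0317, adjusted 0.0397). With Il9 at 0 in 3 PBS libraries, the size of this difference is set by the added count and is no measured fold: it was -4.61 with 1 added and -7.01 with 0.1 added. In it, PBS 3 at 5.52 lay below the highest IL-33 library at 5.70.

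**Figure D3:**
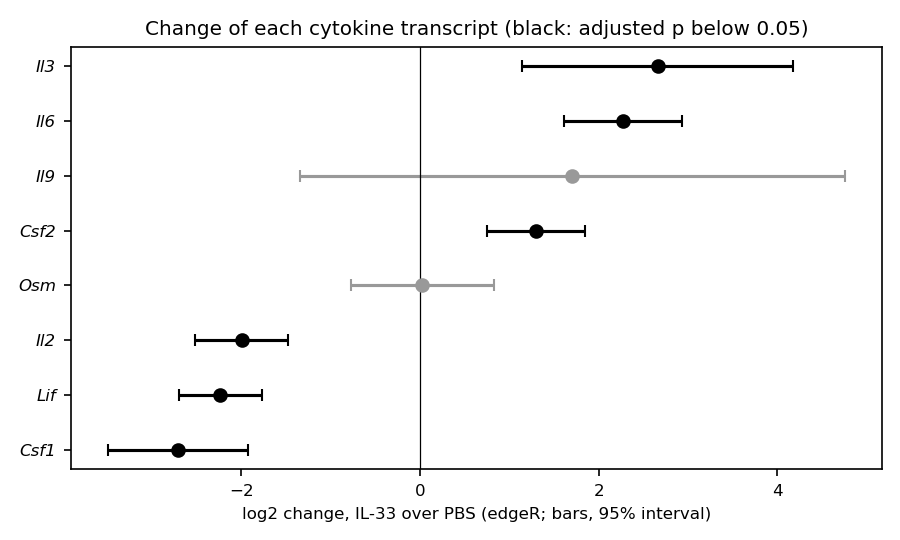
Log2 change with IL-33 over PBS (horizontal axis) of the 8 cytokine transcripts, from edgeR, with 95% intervals. Black points were called at an adjusted p below 0.05: Csf2, Il6 and Il3 lie right of 0 between 1.30 and 2.66, Il2, Lif and Csf1 left of it between -1.996 and -2.71, and the intervals of Osm and Il9 include 0.

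The summed level of the 8 transcripts overlapped between the groups, and the shares of most of them in it did not. The sum was 910 ± 150 CPM in PBS (SD, n = 4, 710 to 1044) and 1112 ± 327 with IL-33 (n = 5, 809 to 1520). Of this sum, Csf2 took 38.8% ± 2.67 in PBS and 78.2% ± 2.32 with IL-33. Lif went from 40.7% ± 2.88, at par with Csf2 in CPM, to 7.38% ± 1.73. Csf1 went from 9.55% ± 2.23 to 1.28% ± 0.70 and Il2 from 4.76% ± 0.54 to 1.03% ± 0.38, while Il6 went from 2.05% ± 0.23 to 7.97% ± 0.86. For each of these 5 the libraries of the groups did not overlap in their shares. The share of Il3 was also apart, by little, with at most 0.296% in PBS and at least 0.327% with IL-33. Osm kept 3.92% ± 1.73 and 3.13% ± 1.13, and the groups overlapped in the shares of Osm and of Il9. These shares are not adjusted for exon length, which is 4350 bases for Lif and 800 for Csf2. Per kb of exon, Csf2 took 72.6% ± 2.42 in PBS and 91.5% ± 0.87 with IL-33. Lif took 14.1% ± 1.12 and 1.59% ± 0.41 per kb, so it was not at par with Csf2 by that measure. Shares within a sum are not independent of each other, and they were not tested.

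**Figure D4:**
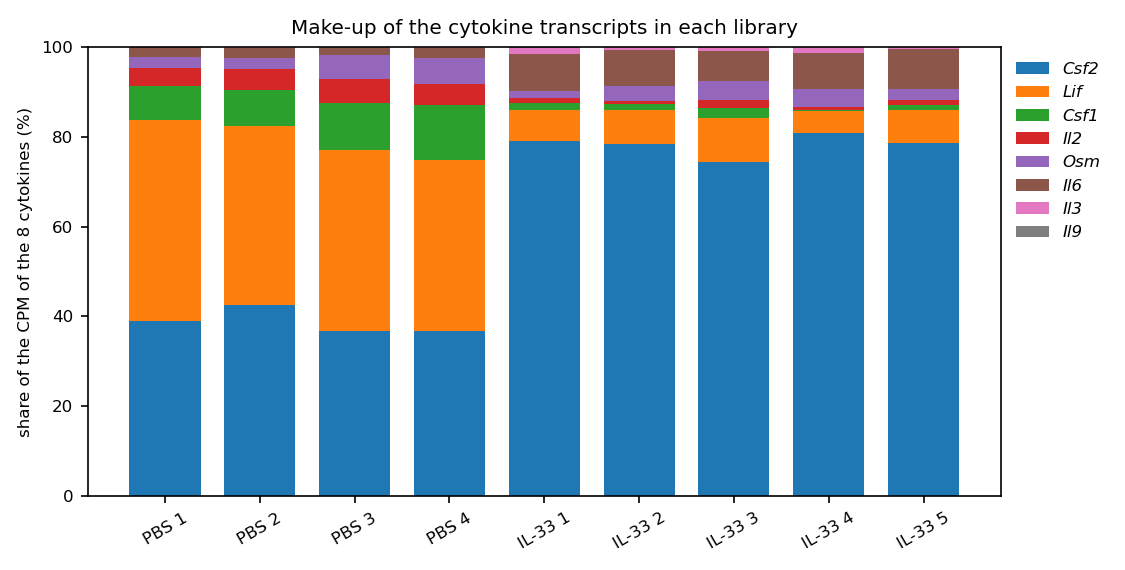
Share of each cytokine in the summed CPM of the 8 (vertical axis, percent, not adjusted for exon length) in each library (horizontal axis). The 4 PBS bars are divided mainly between Csf2 (36.8 to 42.5%) and Lif (38.0 to 44.8%), and the 5 IL-33 bars are mainly Csf2 (74.5 to 80.8%), with Il6 and Lif taking most of the rest.

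Adjusted for exon length, the order of levels in PBS was Csf2 (444 CPM per kb), Lif (85.7), Il2 (37.7), Csf1 (16.01), Osm (14.9), Il6 (7.68), Il3 (2.52) and Il9 (0.473). Csf1 (± 1.47) and Osm (± 4.67) did not differ beyond their spread, and neither did Il3 (± 1.89) and Il9 (± 0.945) clearly. With IL-33 the order became Csf2 (1091), Il6 (37.1), Lif (18.2), Il3 (15.8), Osm (15.2), Il2 (9.44), Csf1 (2.44) and Il9 (1.62). Lif (± 4.75), Il3 (± 9.36) and Osm (± 6.40) were within each other's spread, as were Csf1 (± 1.04) and Il9 (± 0.869). Il2 (± 2.46) lay within the spread of Il3 and of Osm. Csf2 was thus first in either group, and the place after it passed from Lif to Il6.

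Transcripts of the receptor chains were measured in the same libraries. Of 13 chains, 10 were tested. By edgeR, 0 were called higher (2 at an unadjusted p below 0.05, and 1 by DESeq2 with adjustment) and 4 were called lower, with a median log2 change of -0.61 over the 10 against -0.05 over all tested genes. Of all tested genes, 13.7% were called higher and 11.6% lower. Both chains of the IL-6 receptor were among the 4 receptor chains called lower. Il6st, which encodes gp130 itself, stood at 50.3, 67.1, 63.4 and 56.1 CPM in PBS 1 to 4 and at 3.09, 5.28, 13.2, 9.81 and 2.44 CPM in IL-33 1 to 5. The groups were far apart, and the log2 change was -3.13 ± 0.47 (adjusted p = 0.0015). Il6ra, the chain that binds IL-6, stood at 9.34, 6.81, 1.87 and 4.96 CPM in PBS and had 23 counts in the 5 IL-33 libraries together, with IL-33 1 and 5 at 0 (log2 -4.50 ± 1.21, adjusted p = 0.023). So Il6 rose where the transcripts of both chains of its receptor fell.

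Lifr, which pairs with gp130 to bind LIF, was uneven in PBS, from 0.964 CPM in PBS 2 to 31.0 in PBS 4, and was not called (adjusted p = 0.205). Osmr, the partner chain for oncostatin M, had 44 counts in PBS and 9 with IL-33 and was not tested. Lifr was highest in the library with the most acinar RNA and the highest endothelial sum, and their part in it was not tested.

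Chains for IL-2 were abundant. Il2ra, the high-affinity chain CD25 and itself an ILC2 marker, stood at 595, 640, 477 and 406 CPM in PBS and 298, 328, 322, 442 and 413 with IL-33. The groups overlapped, and the fall was small (log2 -0.55 ± 0.17, adjusted p = 0.037). Il2rg, the common gamma chain, had 2804, 2545, 1894 and 1363 CPM in PBS and 983, 863, 1705, 1034 and 939 with IL-33, with PBS 4 inside the IL-33 range (log2 -0.96 ± 0.25, adjusted p = 0.021). Il2rb, which is shared with the receptor for IL-15, had 73.7 ± 15.3 CPM in PBS and 107 ± 32.2 with IL-33 and was not called (adjusted p = 0.132). Il9r had 117 ± 12.3 and 95.1 ± 9.12 CPM (adjusted p = 0.080), well above the level of its ligand. Among the receptor genes called lower, Il6st was called so in all 19 alternative fits. Il6ra was called lower in 14 and not called in 4. The calls of Il2ra and Il2rg were not firm and held in 10 and 12 of the 19. The number called lower was 1 without PBS 1, 1 without PBS 2, 2 without IL-33 2 and 1 without IL-33 1 to 3.

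Chains for the myeloid factors were low. Csf2rb, the beta common chain, was at 0 in PBS 2, PBS 3 and IL-33 5 and highest in IL-33 4 at 5.81 CPM, the library highest in macrophage markers (adjusted p = 0.898). Its relative Csf2rb2, which in the mouse serves IL-3 alone, and Csf1r, the M-CSF receptor, had 36 and 31 counts in PBS and 51 and 131 with IL-33 and were not tested. Most of these counts came from single libraries: PBS 1 held 32 and 31, and IL-33 4 held 48 and 117. Csf2ra had 11.6 ± 1.56 CPM in PBS and 7.35 ± 2.33 with IL-33 (adjusted p = 0.117). Il3ra stood at 4.52, 7.35, 21.6 and 12.5 CPM in PBS and at 33.8, 24.9, 16.5, 38.9 and 32.3 with IL-33. It missed the threshold narrowly (log2 1.35 ± 0.44, adjusted p = 0.051), and was called higher in 6 of the alternative fits, without IL-33 3 among them.

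**Figure D5:**
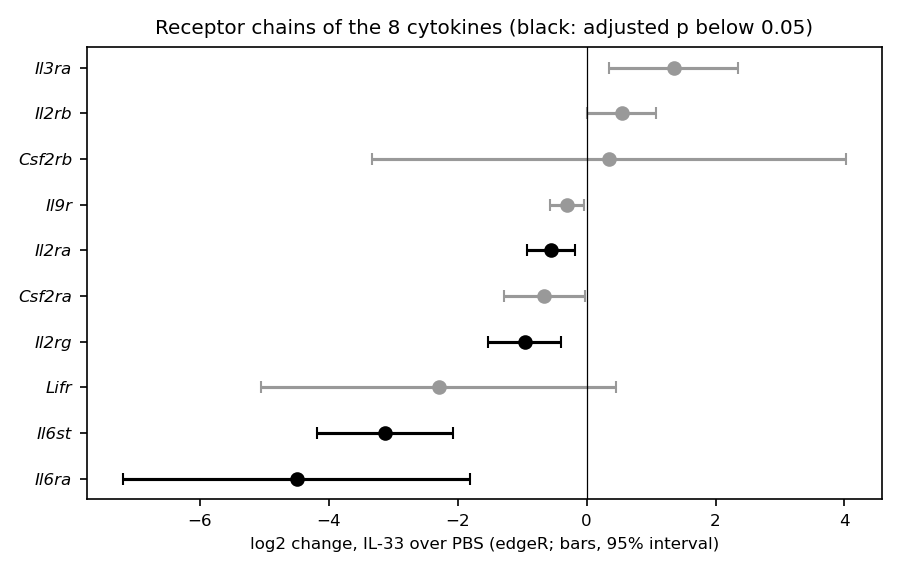
Log2 change with IL-33 over PBS (horizontal axis) of the 10 receptor chains that were tested, from edgeR, with 95% intervals. Black points were called at an adjusted p below 0.05: Il6ra at -4.50, Il6st at -3.13, Il2rg at -0.96 and Il2ra at -0.55, and the other 6, in grey, were not called.

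Other cytokines of the same families were either low or higher with IL-33. Of 21 relatives, 12 had a row and 8 were tested. Of these 4 were called higher and 0 lower by edgeR (0 lower at an unadjusted p below 0.05, and 1 by voom with adjustment), with a median log2 change of 0.78. They were Il13 (log2 4.14 ± 0.37), Il5 (2.23 ± 0.20), Ebi3, a subunit of IL-27 and IL-35 (1.39 ± 0.15), and Il4 (1.19 ± 0.23), with adjusted p between 1.2e-04 and 0.0052. Over all tested genes the median log2 change was -0.05, with 13.7% called higher and 11.6% lower. Il4 reached 33.4 ± 6.54 CPM, about the level of Osm. Csf3, the granulocyte factor that completes the colony-stimulating factors, had 0 counts in PBS and 23 with IL-33 and was not tested.

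Signal carriers downstream of these receptors and their feedback genes also moved both ways. Of 18 genes of the JAK and STAT list, 5 were called lower and 1 higher, with a median log2 change of -0.22. Over all tested genes, 11.6% were called lower and 13.7% higher, with a median of -0.05. Socs2 (log2 -1.25 ± 0.18, adjusted p = 0.0012) and Cish (-0.86 ± 0.16, adjusted p = 0.0048), both feedback inhibitors that STAT5 induces, were lower, as was the kinase Pim1 (-1.09 ± 0.26, adjusted p = 0.013). Stat2 was lower too, and Jak3, the kinase bound to the common gamma chain, was higher (1.18 ± 0.32, adjusted p = 0.023). Stat3, through which gp130 signals, did not pass the test (log2 -0.09 ± 0.14), nor did its feedback gene Socs3 (0.04 ± 0.55). Without IL-33 1 to 3, 1 of the list was called lower. The call of Jak3 was lost without IL-33 2, 4 or 5 and without PBS 1, 2 or 3.

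Transcription factors known to switch on cytokine genes moved both ways. Of 25 tested, 9 were called lower and 2 higher, with a median log2 change of -0.51. Among all tested genes, 11.6% were called lower and 13.7% higher, with a median of -0.05. Egr1, an immediate early factor, stood at 379, 416, 411 and 626 CPM in PBS and 79.8, 98.0, 63.7, 58.7 and 54.3 with IL-33 (log2 -2.69 ± 0.22, adjusted p = 7.1e-05). The AP-1 members Fosb (-2.20 ± 0.21) and Fos (-1.44 ± 0.14) also fell, with adjusted p of 1.6e-04 and 1.8e-04. Batf, an AP-1 member that pairs with IRF4 on cytokine genes of T cells, rose from 65.0 to 85.4 CPM in PBS to 169 to 247 with IL-33 (log2 1.55 ± 0.14, adjusted p = 1.2e-04). Irf4 rose from 3.43 ± 3.04 to 61.8 ± 19.2 CPM (log2 4.21 ± 0.87, adjusted p = 0.0072). Of the other 6 that fell, Rela is the main activating subunit of NF-kB, while Nfkb1, Rel and the 3 Nfatc genes did not pass the test. Without IL-33 1 to 3, 6 of the list were called lower and 1 higher.

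RNA-binding proteins that act on AU-rich or stem-loop elements of cytokine messages were tested as a list of 14. Of these, 5 were called lower and 1 higher, with a median log2 change of -0.69. The values over all tested genes were 11.6% lower and 13.7% higher, with a median of -0.05. Arid5a, which protects Il6 messages from decay, fell from 94.99 to 131 CPM in PBS to 17.0 to 37.4 with IL-33 (log2 -2.06 ± 0.23, adjusted p = 3.4e-04). Zfp36l2 (-1.87 ± 0.29, adjusted p = 0.0016) and Zfp36l1 (-0.98 ± 0.20, adjusted p = 0.0071), which bind AU-rich elements and speed decay, fell as well. Khsrp, another decay factor, was higher (1.45 ± 0.37, adjusted p = 0.018). Zfp36, the best known of them, had 2232 ± 514 CPM in PBS and 1608 ± 395 with IL-33 and was not called (adjusted p = 0.130). The 2 roquin genes Rc3h1 and Rc3h2 made up the rest of the 5. Without IL-33 1 to 3, 1 of the list was called lower.

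Neighbouring genes moved in either direction. Within 200 kb of the 8 genes lay 48 others with a row, of which 33 were tested, 7 called higher and 3 lower, 10 of 33 against the 25.2% of all tested genes. Beside Csf2 and Il3, the non-coding 4933405E24Rik rose from 0.932 ± 0.744 to 11.5 ± 1.53 CPM (log2 3.58, adjusted p = 0.0075) and the pseudogene Gm12222 rose (1.46, adjusted p = 0.037), while P4ha2, a collagen prolyl hydroxylase, fell from 45.6 ± 11.9 to 23.8 ± 6.02 (-0.94, adjusted p = 0.024). Beside Il6, Tyms, a DNA synthesis enzyme, rose from 22.5 ± 6.45 to 165 ± 24.6 CPM (log2 2.88, adjusted p = 6.3e-05), and the fatty acid oxidation genes Hadhb (0.77) and Hadha (0.65) rose by less. The non-coding Gm4961, at 0 in PBS, had 1.15 ± 0.69 CPM with IL-33, at least 5.97-fold higher than a floor of 3 counts in each PBS library. Lif was called lower and Osm, 16530 bases away, was not called, and their called neighbour Mtfp1 had 3 counts in PBS and 322 with IL-33. Fbxl21 near Il9 (log2 -2.66, adjusted p = 0.0031) and Ahcyl1 near Csf1 (-0.64, adjusted p = 0.042) fell.

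The genes whose profile over the 9 libraries was most like that of a cytokine were found among 8752 named protein-coding genes with a mean of at least 5 CPM. The measure was the root-mean-square difference of mean-centred log2 levels, in which a smaller value means more alike. For Csf2 these were Fam213a (0.17) and Rbm3 (0.19), for Il6 the histones Hist1h2bb (0.26) and Hist1h2bg (0.27), and for Il3 Alox5ap (0.46) and Tnfrsf11a (0.48). Lif and Il2 had St5 in common, at 0.26 and 0.24, and Il2 itself was the gene next most like Lif (0.28), with Gpr183 (0.23) nearest to Il2. Csf1 was most like Ttc28 (0.25) and Bambi (0.31), Osm like Ppox (0.24) and Stau1 (0.26), and Il9 like Cnot3 (0.27) and St6galnac6 (0.29). The median over candidates lay between 0.76 for Osm and 1.53 for Csf1. The likeness includes the difference between the groups and is a description.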

How the data were processed

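Messenger RNA was measured in 9 libraries of sorted pancreatic ILC2s, 4 PBS and 5 IL-33. The series' design text gives 5 and 4, and the sample labels were followed. No label ties each library to its own mouse. The p-values therefore reflect how far these libraries differ, which may be technical. Per the labels' protocols, a low-input kit took 5 to 15 ng of RNA and reads were paired, 150 nt each.

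The authors deposited whole-number counts per gene and a table of normalized signal, which on its values is the counts divided by 1 factor per library. The submitters' processing notes name the build GRCm38.p6, the aligner STAR 2.7.7a, the quantifier Salmon 1.6.0, Trimmomatic 0.39, Picard, FastQC 0.11.9 and DESeq2. Which of them made the counts, with what annotation and filter, is not given in sources used here. Symbols were matched for 20571 of 20732 genes (99.2%). Positions, exon lengths and 3' UTRs came from GENCODE M21 (GRCm38), promoters from RefSeq.

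The test was edgeR 4.0.16 (R 4.3.3) with TMM factors, the filterByExpr filter at a minimum of 10 counts, and the robust quasi-likelihood F-test, two-sided, Benjamini-Hochberg over 14405 genes, threshold 0.05. Values are TMM-scaled CPM, mean ± SD over libraries. The floor of 3 counts for a gene at 0 covers counting error only, since reads are not independent molecules, and the 95% intervals of log2 changes come from the fit. Ratios of counts (0.5 added) were compared by an exact permutation test over 126 splits (SciPy 1.17.1), and likeness used log2(CPM + 0.5). No libraries of a group were duplicates, with a chi-square of at least 52.6 per degree of freedom for every pair. On data simulated for this comparison, over 13874 genes, the test called 11.3% of 97 simulated 2-fold changes, 51.0% of 98 simulated 4-fold changes and 1 unchanged gene.

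The 8 cytokines and the 15 gene lists were chosen with earlier results of these data known. Genes named beside the 8 were the receptor chains, the 4 smallest adjusted p in each of 5 pathway lists, the 2 most abundant of a marker list, called neighbours within 200 kb and the 2 most alike per cytokine; others were chosen after their values were seen. A gene that the rule names is not reported here. Alternatives were other scalings, filters, tools (DESeq2 1.42.0, limma 3.58.1 voom, limma-trend on the deposited signal), acinar genes removed, a threshold of 0.01, the replicate number as a block, and each library left out. Leaving out IL-33 1 to 3 together was added after seeing the data.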

Additional observations from a re-analysis of the deposited data

Results flagged for a closer look

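Of 26 groups of libraries examined (8 transcripts and 5 ratios in each condition), 1 had a library far from the others. Il9 was at 1.013 CPM in PBS 3 (20 counts) and at 0 in the other 3 PBS libraries, so the gap took up the whole range. About 1 group in 20 is picked out in this way by chance. PBS 3 was also the highest PBS library for Csf1 (93.2 CPM) and Osm (45.7 CPM), though not for Csf2, Il3, Il6, Lif or Il2, and it had the highest sum of mast cell and basophil markers (89.8 CPM against 36.3 to 61.9). The part of those cells in the Il9 counts was not tested.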

How the results depend on the processing

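No change of the 8 transcripts that was called turned its direction in the 19 alternative fits. The count of cytokines called lower was 3 in all of them. With the replicate number as a block, 1 cytokine was called higher in place of 3, since Csf2 (log2 1.14, adjusted p = 0.0529) and Il3 (3.06, 0.0558) were lost. Libraries of one number did not deviate together (correlations -0.06 to 0.07). These correlations rest on few libraries, and whether libraries of one number shared a day or a batch was not tested. Il3 was also lost with voom (adjusted p = 0.0539), without IL-33 1 to 3 (0.102) and at a threshold of 0.01. Over all genes, 1967 were called higher and 1666 lower. These counts were 791 and 666 with the block, 1019 and 767 at a threshold of 0.01, and 732 and 664 without IL-33 1 to 3. Scaling by library size alone gave 644 lower, moved the median of all genes by 0.13 (log2) and put 67.4% of calls on the higher side against 54.1%. The cause was not tested. In the exact paired sign-flip permutation test, whose smallest p is 0.125, the ratio differences were -2.25 (Lif to Osm), -4.43 (Lif to Il6), 4.14 (Csf2 to Csf1), each with p = 0.125, and -5.33 (Il2 to Il9, p = 0.25). With 1 library left out they ranged from -2.44 to -1.96, -4.63 to -4.31, 3.67 to 4.41 and -6.50 to -4.78 in that order, with adjusted p from 0.0357 to 0.0893, because fewer libraries raise the smallest p.

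Depth limits Il9 (0 to 20 counts in a PBS library) and Il3. The simulated recovery at 2-fold was 11.3%, but only 97 genes were changed by 2-fold and 98 by 4-fold among 13874. In these data 25.2% of tested genes were called. Adjusted p-values depend on the share of genes that change, so the simulation does not give the share of 2-fold changes missed here.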
